A study of Mus musculus with 10 samples.

Results

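Gene expression was compared between inspiratory neurons of the preBötzinger complex (preBötC) that had been classed as Type-1 and those whose class remained Unknown. The comparison holds 9 of the 10 single-neuron transcriptomes of the data set: 4 Type-1 neurons (samples 4, 5, 6 and 7) and 5 Unknown neurons (samples 2, 3, 8, 9 and 10), assigned by their sample labels. The remaining neuron, sample 1, was a Type-2 neuron and was left out. Type-1 neurons show a transient outward (A-type) potassium current that delays their firing and lack the hyperpolarization-activated sag, whereas the recordings of Unknown neurons did not permit a class.

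Among the Type-1 neurons, samples 5, 6 and 7 came from Dbx1;Ai148 pups at P0, P3 and P3, and sample 4 came from a CD-1 wild-type pup at P3. All 5 Unknown neurons came from CD-1 pups: samples 3 and 8 at P0, sample 10 at P1, and samples 2 and 9 at P2. The mouse lines follow the sample labels, which call samples 5, 6 and 7 Dbx1-derived and all other neurons used here WT. Figure legends of the study assign the lines to the samples in another way, and every statement below about Dbx1;Ai148 or CD-1 neurons rests on the labels. Dbx1;Ai148 pups carry Cre under the control of Dbx1 and a Cre-dependent calcium indicator, GCaMP6f, on a C57Bl/6J or mixed C57Bl/6J;CD1 background. Their neurons were picked for rhythmic fluorescence in Dbx1-derived cells, whereas CD-1 neurons were picked for activity in time with hypoglossal motor output, whatever their lineage. No Unknown neuron came from a Dbx1;Ai148 pup, so in samples 5 to 7 against Unknown the electrophysiological class, the mouse line and the way of picking neurons cannot be told apart. Within CD-1 mice the comparison is sample 4 alone against 5 neurons. The labels name no animals, and each library is 1 neuron, so the classes were described without a test or p-value. The spread (SD) and n below are over neurons, which may share a pup.

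The preBötC is the brainstem site that generates the inspiratory rhythm. Its rhythmogenic core consists of glutamatergic interneurons that derive from precursors expressing Dbx1, a homeobox gene of the ventral neural tube that is switched off after the cells are born. Descendants of these precursors, the V0 class, are known for commissural axons and for the transcription factors Evx1, Evx2, Lhx1 and Lhx5. The A-type current is carried by pore subunits of the Kcna4, Kcnc4 and Kcnd families, and the sag by the HCN channels.

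Levels are in FPKM, fragments per kilobase of gene and per 1000000 fragments counted on genes, and differences are Type-1 minus Unknown in the mean of log2(FPKM + 1), a scale that understates the difference of low genes. Library totals ran from 22072697 to 36629393 fragments. A gene without a fragment can hold up to 3 by chance, which is 0.0819 counts per 1000000 in the deepest and 0.136 in the shallowest library, and such limits cover counting error only. Of 55367 listed genes, 10126 reached 1 FPKM in at least 3 of the 9 neurons and were considered. A gene was counted as higher or lower when the neurons of the 2 classes did not overlap and their means differed by at least 1. This rule describes these neurons and is not a test.

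Upstream sequences of 3 genes that describe samples 5 to 7 are given first: Asb4, which had the largest difference of all named genes, Kcna4, the A-type channel gene, and Evx2, the V0 transcription factor gene. Each is the RefSeq window on GRCm38.p6 from 250 bases before to 50 bases after an annotated start, read in the direction of transcription. Capitals mark the letters TATAAA (the TATA box), TAATTA (a homeodomain core) and GGGCGG (a GC box) on either strand, where adjoining matches run together.
Asb4, chr6:5383136-5383435, plus strand: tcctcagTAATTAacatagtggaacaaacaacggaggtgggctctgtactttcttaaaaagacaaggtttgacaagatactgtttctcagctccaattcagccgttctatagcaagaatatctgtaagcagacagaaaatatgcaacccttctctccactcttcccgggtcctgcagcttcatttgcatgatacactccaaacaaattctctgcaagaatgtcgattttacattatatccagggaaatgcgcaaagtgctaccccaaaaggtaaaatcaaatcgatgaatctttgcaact
Kcna4, chr2:107290339-107290638, plus strand: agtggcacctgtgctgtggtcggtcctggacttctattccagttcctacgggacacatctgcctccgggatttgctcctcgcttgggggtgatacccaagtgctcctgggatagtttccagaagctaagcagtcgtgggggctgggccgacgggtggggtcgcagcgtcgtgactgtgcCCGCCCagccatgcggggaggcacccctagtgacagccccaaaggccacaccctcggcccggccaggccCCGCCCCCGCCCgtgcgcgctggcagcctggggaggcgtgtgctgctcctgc
Evx2, chr2:74659508-74659807, minus strand: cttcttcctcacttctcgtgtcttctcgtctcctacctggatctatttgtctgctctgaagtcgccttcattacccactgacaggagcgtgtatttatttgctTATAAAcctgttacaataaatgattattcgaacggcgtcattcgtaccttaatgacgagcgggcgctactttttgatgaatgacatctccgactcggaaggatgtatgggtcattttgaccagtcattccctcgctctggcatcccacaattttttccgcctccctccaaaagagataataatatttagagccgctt
The Asb4 window holds 1 TAATTA, the Kcna4 window 3 GC boxes, and the Evx2 window 1 TATAAA. CG dinucleotides number 6 for Asb4, 20 for Kcna4 and 16 for Evx2. Over the 32851 windows of the table, TATAAA occurred in 13.6%, TAATTA in 5.29% and GGGCGG in 35.7%, and the median number of CG dinucleotides was 7. The table matched 7358 of the 10126 considered genes, whose windows held these letters in 6.67%, 2.38% and 63.6%. The windows of the genes counted higher in samples 5 to 7 (291 of 366 matched) held them in 4.90%, 2.94% and 57.8%. Those of the genes counted lower (71 of 153 matched) held them in 10.8%, 2.41% and 72.3%. A match describes letters only. Windows of Nrn1, Lhx5, Kirrel3 and S100a10 were not used here.

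Sample 4 stood apart from the other 8 neurons before any comparison was made. The mean log2(FPKM + 1) over 10 pan-neuronal markers was 1.86 in sample 4, between 6.13 and 6.78 in the other Type-1 neurons and between 5.77 and 7.21 in the Unknown neurons. Tubb3, neuronal beta-tubulin, was at 1.07 FPKM in sample 4, at 1678, 652 and 1074 FPKM in samples 5 to 7, and between 740 and 1242 FPKM in the Unknown neurons. Over 8 microglial markers the same mean was 9.66 in sample 4, from 0.17 to 2.74 in samples 5 to 7, and from 0.11 to 6.31 in the Unknown neurons. Tyrobp, a signalling adaptor of microglia, was at 5567 FPKM in sample 4 and at most at 549.8 FPKM in any other neuron. The pan-neuronal markers of sample 4 were thus far below those of the other neurons, although 7 of the 10 reached 1 FPKM there. The study classed this cell as Type-1 from its recording. The reason for the low level was not tested, and results are given with and without sample 4. Samples 2 and 3, like sample 4, were among the libraries with the least cDNA in the study, and they held 50.02% and 46.7% of the considered genes at 1 FPKM or more, sample 4 55.6%, sample 9 59.98%, and the other 5 neurons between 74.9% and 81.5%.

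**Figure D1:**
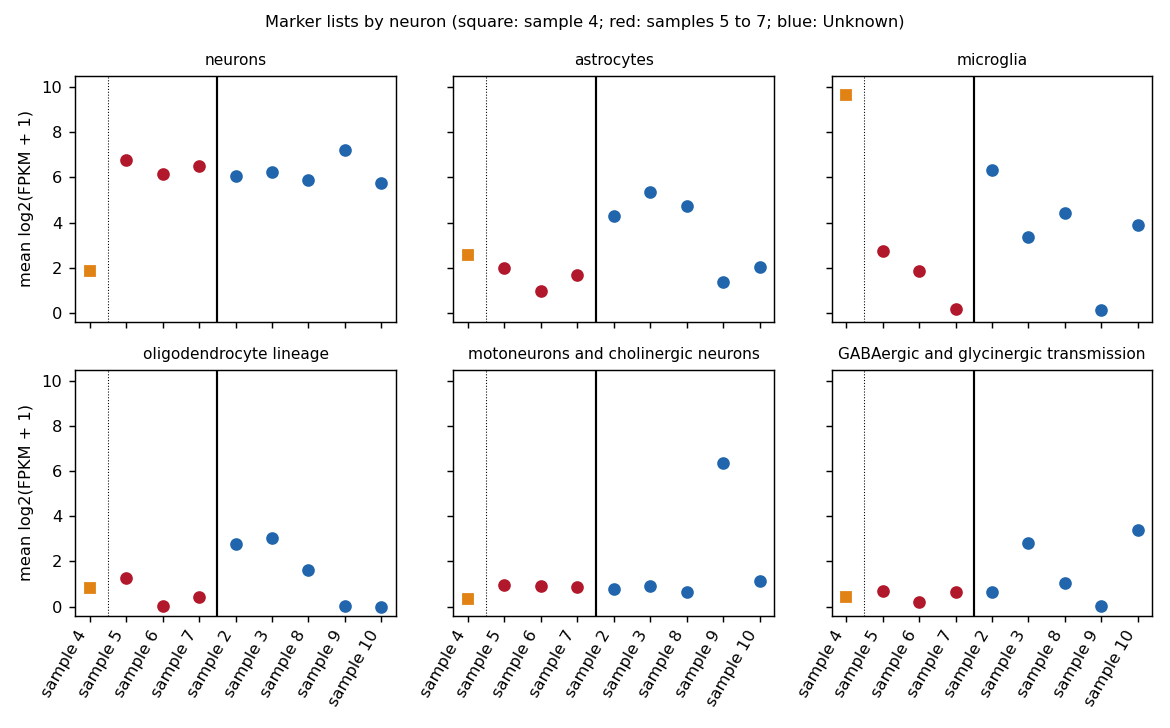
Mean log2(FPKM + 1) over each marker list (vertical axis) in each neuron (horizontal axis), with sample 4 as a square, samples 5 to 7 in red and the 5 Unknown neurons in blue. Sample 4 is lowest for the neuronal list at 1.86 and highest for the microglial list at 9.66, and sample 9 is highest for the motoneuron and cholinergic list at 6.37.

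With all 4 Type-1 neurons, few genes separated the classes. Counted were 72 genes as higher in Type-1 (0.711% of the considered genes) and 53 as lower (0.523%). The median difference over all considered genes was 0.16. Mfng, a Fringe glycosyltransferase that modifies Notch, led the higher genes, at 19.5, 18.8, 30.6 and 39.6 FPKM in samples 4 to 7. In the Unknown neurons it was at 12.7 FPKM in sample 8 and at most at 0.0479 FPKM in the other 4, so the classes did not overlap. Its difference was 3.97, from 4.75 ± 0.50 (SD, n = 4) against 0.78 ± 1.67 (SD, n = 5). Ubtd1, a ubiquitin domain protein, was at 25.2, 12.2, 19.7 and 6.35 FPKM in samples 4 to 7, against at most 0.0537 FPKM in the Unknown neurons, where it had 4 fragments in all 5 libraries together.

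Other leading genes of this comparison encode proteins used in most cells. Hars2, the mitochondrial histidyl-tRNA synthetase, differed by 3.16, Mre11a, a DNA double-strand break nuclease, by 3.14, Lsm2, of the U6 snRNA ring, by 3.01, and Ppie, a spliceosomal prolyl isomerase, by 3.48. The zinc finger genes Zfp830 and Zfp513 differed by 3.73 and 3.17, and Srfbp1, a cofactor of serum response factor, by 3.08. Exons of Hars2, Mre11a, Ppie and Zfp513 overlap a gene on the opposite strand, and the library kit does not mark the strand, so those fragments cannot be assigned to one gene. Of the 72 genes, 36 stayed under 1 FPKM in all 5 Unknown neurons. These genes passed the filter on low values through Type-1 neurons alone, which favoured a difference without forcing one. Their number is thus no support for a difference between the classes.

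Among the 53 lower genes, S100a10 and Kirrel3 had the largest differences. Both were among 11 of the 53 genes that stayed under 1 FPKM in every Type-1 neuron. These genes passed the filter through Unknown neurons alone, which favoured a difference without forcing one. Their number is thus no support for a difference between the classes. S100a10, a partner of annexin A2, was at 0.028, 0.315, 0.183 and 0.0964 FPKM in samples 4 to 7 and at 40.6, 62.7, 19.1, 295 and 5.92 FPKM in samples 2, 3, 8, 9 and 10. The classes did not overlap, and the difference was -5.14, from 0.20 ± 0.15 (SD, n = 4) against 5.34 ± 2.01 (SD, n = 5). Kirrel3, a cell adhesion protein of the immunoglobulin superfamily that takes part in synapse formation, was between 0.0158 and 0.0677 FPKM in the Type-1 neurons and between 8.48 and 49.2 FPKM in the Unknown neurons, a difference of -4.57. Both differences were nearly the same without sample 4, at -5.08 and -4.56. Sample 4 was low in the pan-neuronal markers as well, so its low values for S100a10 and Kirrel3 cannot be read as a trait of its class. Adgrl2, an adhesion receptor of the latrophilin family, was at most at 1.10 FPKM in Type-1 and at least at 6.38 FPKM in Unknown neurons (difference -3.46). S100b, a calcium-binding protein abundant in astrocytes, only just separated with sample 4, at 4.65 FPKM there and at 4.66 FPKM in sample 10. Tmem65, Fam184b, Serpine2, Trib2, Rap2a and the pseudogene Ldhb-ps completed the leading lower genes, with differences between -3.69 and -3.19.

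Without sample 4, many more genes separated the classes. In samples 5 to 7 against Unknown, 366 genes were counted as higher (3.61%) and 153 as lower (1.51%), and the median difference over all considered genes was 0.43. A smaller set of neurons overlaps less often by construction, so these numbers cannot be compared with those above as a strength of difference. Of the 366 genes, 70 stayed under 1 FPKM in every other neuron and had to differ once considered, and 37 were at 1 FPKM or more in all 5 Unknown neurons. Sample 4 entered this count only through the filter on low values, which ran over all 9 neurons. It was above all Unknown neurons in 70 of the 366 genes (19.1%), against 14.8% of all considered genes. It was below all of them in 68 (18.6%), against 18.7%. For the 153 lower genes it was below all Unknown neurons in 50 (32.7%) and above all of them in 71 (46.4%).

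The number of detected genes differed among the neurons and moved with this comparison. The 366 higher genes were at 1 FPKM or more for 362, 363 and 364 genes in samples 5 to 7, for 203 and 209 in samples 8 and 10, for 125 in sample 9, and for 95 and 76 in samples 2 and 3. Without samples 2 and 3, 335 of the 366 genes and 120 of the 153 genes were still counted, among 527 higher and 327 lower genes. Leaving out Unknown neurons cannot make classes overlap, so a gene could leave these counts only through the filter or the minimum difference. With TMM-scaled library sizes, 276 and 139 of them were still counted. The part of library complexity in the counts was not tested beyond these values.

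Asb4, a subunit of a ubiquitin ligase with ankyrin repeats that is known from imprinting studies and from hypothalamic neurons, had the largest difference. It was at 136, 1440.3 and 432 FPKM in samples 5, 6 and 7, at 0.631 FPKM in sample 4, and only at 0.0491, 0.620, 0.115, 2.15 and 0.050 FPKM in samples 2, 3, 8, 9 and 10. No CD-1 neuron, of either class, reached the level of any Dbx1;Ai148 neuron, but the only CD-1 Type-1 neuron, sample 4, was low in the pan-neuronal markers as well. The difference was 8.25, from 8.78 ± 1.70 (SD, n = 3) against 0.53 ± 0.68 (SD, n = 5). Summed over neurons, Asb4 was at 655 FPKM in samples 5 to 7 (95% exact Poisson interval 652 to 657) and at 0.4998 FPKM in Unknown neurons (0.444 to 0.561), where the intervals cover counting error only. The gene lies on chromosome 6 between 5383386 and 5433022 on the plus strand (GENCODE M21 on GRCm38).

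Nrn1, a neuritogenic protein of the cell surface, was at 74.5, 67.2 and 149.9 FPKM in samples 5 to 7 and at 42.8 FPKM in sample 8, whereas no other Unknown neuron was above 0.262 FPKM (difference 5.29). Xrcc3, a gene of DNA repair by homologous recombination, was between 34.6 and 42.2 FPKM in samples 5 to 7 and at most at 3.69 FPKM in Unknown neurons (difference 4.75). Its exons and those of Nrn1, Tmem163 and Tmem255a overlap a gene on the opposite strand. Lypd6, a modulator of nicotinic receptors and Wnt signalling, was at 21.7, 35.5 and 14.5 FPKM against at most 0.109 FPKM in Unknown neurons, with 12 fragments in the 5 Unknown libraries together (difference 4.51). Gspt2, a translation release factor gene of the X chromosome, showed the same pattern, at 28.5, 23.9 and 13.0 FPKM against at most 0.108 FPKM (difference 4.40). Fbxl6, Spns1, Pomgnt2, Mfng, Tmem163, Tmem255a and Fbxo21 had differences between 4.01 and 4.42, and in each of them the highest Unknown neuron was sample 8 or sample 9, at 3.55 to 35.5 FPKM.

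**Figure D2:**
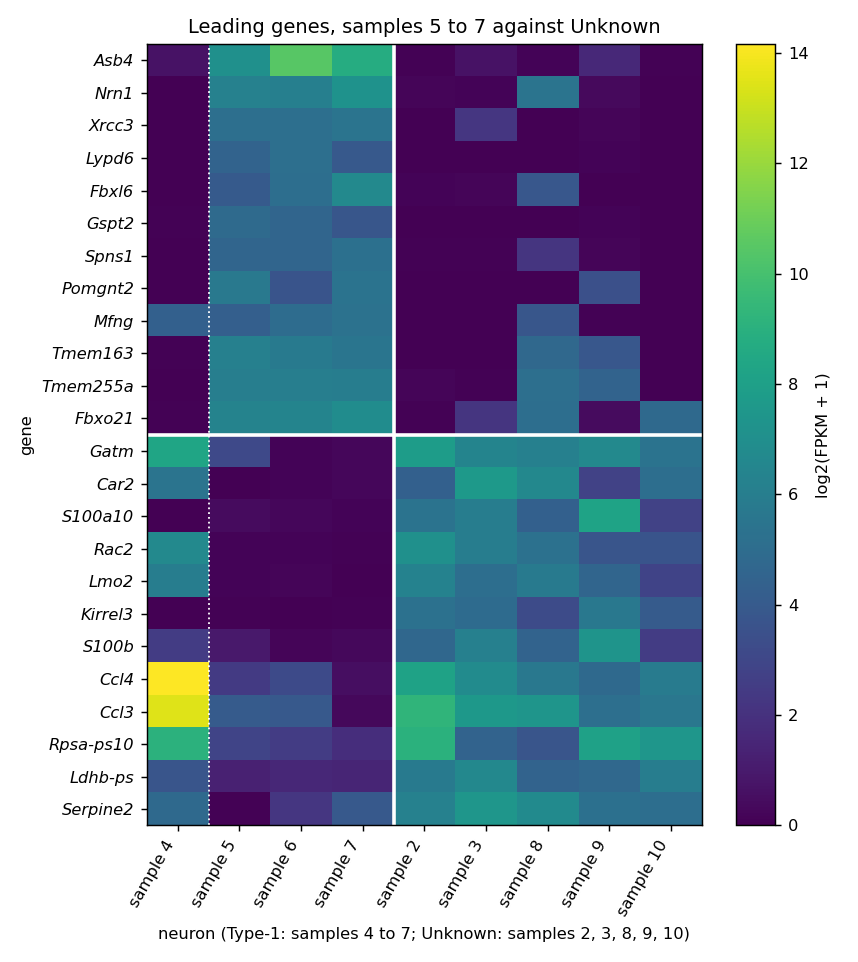
Heat map of log2(FPKM + 1) (colour scale) for the 12 genes with the largest positive and the 12 with the largest negative difference between samples 5 to 7 and the Unknown neurons (rows) in each neuron (columns). For Asb4 the 3 Dbx1;Ai148 neurons are at 136 to 1440.3 FPKM and all other neurons at or under 2.15 FPKM. Sample 4, which is low in the pan-neuronal markers as well, follows samples 5 to 7 for Mfng, S100a10 and Kirrel3. It is above all Unknown neurons for Gatm, Ccl3, Ccl4 and Rpsa-ps10.

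Transcription factors of the V0 lineage were among the lists with the largest median difference. Of 15 listed genes, 5 were considered, of which 2 (Evx2 and Lhx5) were counted as higher and 0 as lower in samples 5 to 7, where 3.61% and 1.51% of all considered genes were counted. The list median was 2.73 against 0.43 over all considered genes. Evx2, a homeobox gene of excitatory V0 neurons, was at 1.89, 12.8 and 14.1 FPKM in samples 5, 6 and 7, at 0 in sample 4 and between 0 and 0.126 FPKM in the Unknown neurons. The 3 Dbx1;Ai148 neurons thus lay above all others, sample 5 by the least, and the difference was 3.02, from 3.08 ± 1.34 (SD, n = 3) against 0.06 ± 0.07 (SD, n = 5). Evx2 had 3496 fragments in samples 5 to 7 and 25 in the Unknown neurons, and it passed the filter through samples 5 to 7 alone. This favoured a high count and a high median for the list, so neither is support for a difference. Lhx5, a LIM homeobox gene, was at 22.7, 16.1 and 14.2 FPKM in samples 5 to 7, at 12.1 FPKM in sample 8, and at or under 0.451 FPKM in samples 2, 3, 4, 9 and 10 (difference 3.32). Its exons overlap a gene on the opposite strand.

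The other 3 considered members of the list were not counted. Zfhx3, a zinc finger homeobox gene, was at most at 0.0594 FPKM in samples 5 to 7, at 3.97 FPKM in sample 4 and between 0.102 and 4.36 FPKM in Unknown neurons. Samples 5 to 7 thus lay below all Unknown neurons, but the difference of -0.94 missed the minimum, and with TPM Zfhx3 was counted as lower. Lhx1, the partner of Lhx5, was at 30.9, 82.2 and 2.48 FPKM in samples 5 to 7 and at 43.5 FPKM in sample 2. Pax2, a paired box gene of inhibitory interneurons among others, was at 6.81, 9.13 and 2.20 FPKM in samples 5 to 7 and at 2.77 FPKM in sample 10, so that the classes overlapped. Dbx1 itself, Evx1, Pax7 and Pou4f2 were at 0 in all 9 neurons. Of 21 transcription factors of other hindbrain interneuron classes, 0 were considered. Single Unknown neurons held a few of them: Barhl1 was at 27.2 FPKM and Gata3 at 36.0 FPKM in sample 2, Lhx3 at 17.5 FPKM in sample 8 and Foxd3 at 11.4 FPKM in sample 10, whereas the highest of the 21 in samples 5 to 7 was Gata3 at 1.43 FPKM. Among 17 Hox genes, 3 were considered and 0 were counted in either direction. Hoxa4, a gene of the caudal hindbrain, was at 22.2, 17.7 and 35.1 FPKM in samples 5 to 7, at 41.2 FPKM in sample 2 and at most at 1.94 FPKM in the other Unknown neurons.

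The transmitter genes divided the Unknown neurons among themselves. Slc17a6, the vesicular glutamate transporter of the brainstem, was at 101, 158 and 156 FPKM in samples 5 to 7 and at 230.4 FPKM in sample 8. It was at 1.85, 0.149, 0.495 and 0.0303 FPKM in samples 2, 3, 9 and 10 and at 0.157 FPKM in sample 4. All 3 Dbx1;Ai148 neurons and 1 of 5 Unknown neurons thus held Slc17a6 at over 100 FPKM, and because of sample 8 the gene was not counted, although its difference was 5.06 (7.09 ± 0.36, SD, n = 3, against 2.04 ± 3.30, SD, n = 5). The other vesicular glutamate transporters, Slc17a7 and Slc17a8, were at 0 in all 9 neurons.

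Gad1, a GABA-synthesizing enzyme, was at 37.2, 8.28 and 92.0 FPKM in samples 3, 8 and 10, and at most at 0.194 FPKM in all other neurons. Gad2, the second such enzyme, was at 22.9 and 34.2 FPKM in samples 3 and 10, at 5.14 and 2.53 FPKM in samples 7 and 4, and at most at 0.263 FPKM in the other 5 neurons. Slc6a5, the glycine transporter of glycinergic terminals, reached 8.598 FPKM in sample 10 alone, and Slc32a1, the vesicular transporter of GABA and glycine, 5.95 FPKM in sample 2 and 0.375 FPKM in sample 10. Samples 3 and 10 thus held both Gad genes over 20 FPKM without Slc17a6, and sample 8 held Slc17a6 together with Gad1. Of the 5 genes of inhibitory transmission 3 were considered, 0 were counted in either direction, and their median difference was -1.14.

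**Figure D3:**
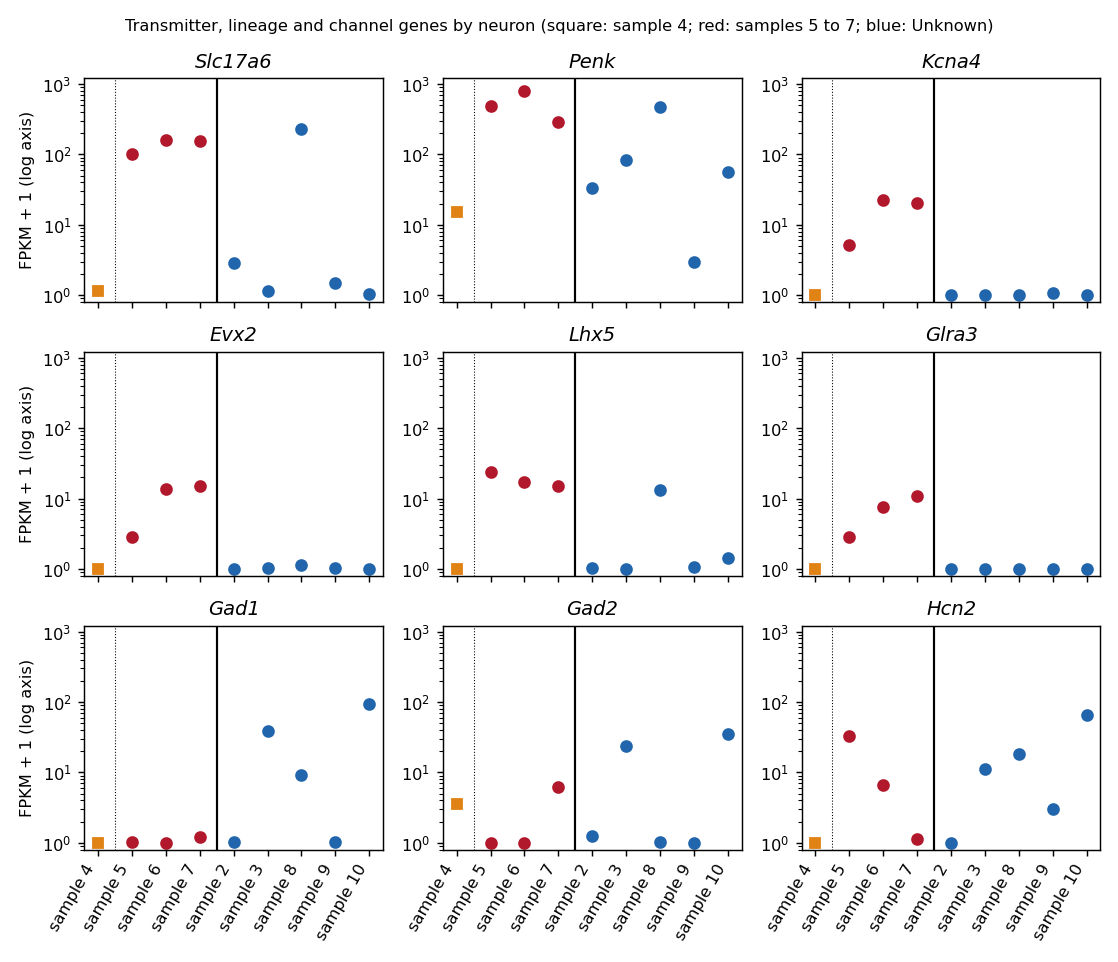
FPKM + 1 on a log axis (vertical) in each neuron (horizontal) for 9 genes of glutamatergic and GABAergic transmission, V0 lineage, channels and receptors, with sample 4 as a square, samples 5 to 7 in red and the 5 Unknown neurons in blue. Kcna4, Evx2 and Glra3 are above 1 FPKM in samples 5 to 7 alone, and Slc17a6 is above 100 FPKM in samples 5 to 8.

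Sample 9 held genes of cholinergic neurons. Slc18a3, the vesicular acetylcholine transporter, was at 444 FPKM in sample 9 and at most at 0.317 FPKM elsewhere, Isl1, a motoneuron transcription factor, was at 38.1 FPKM against at most 0.0285 FPKM, and the peptide gene Calca was at 1264 FPKM against at most 0.924 FPKM. Prph, the filament peripherin, was at 719, 24.6 and 6.76 FPKM in samples 9, 10 and 3. These genes were chosen after their values were seen, apart from Calca and Prph. The mean over the 9 genes of the motoneuron and cholinergic list was 6.37 in sample 9 and between 0.34 and 1.14 in the other 8 neurons. Of this list, 8 genes were at 1 FPKM or more in sample 9, and Mnx1 was at 0 in all 9 neurons. Sample 9 also held 4 of 8 sensory ganglion markers at 1 FPKM or more, with a list mean of 1.61. Leaving sample 9 out of the Unknown neurons gave 522 higher and 278 lower genes in samples 5 to 7.

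The A-type current, which defines Type-1 neurons, is formed by pore subunits from 6 listed genes, of which 3 were considered. Kcna4 was the only one counted, as higher in samples 5 to 7, where 3.61% of all considered genes were counted as higher. It was at 4.23, 21.4 and 19.1 FPKM in samples 5, 6 and 7, at 0.0141 FPKM in sample 4, and only at 0.00571, 0.0199, 0.00779, 0.0562 and 0 FPKM in samples 2, 3, 8, 9 and 10. The 3 Dbx1;Ai148 neurons lay above all CD-1 neurons, the Type-1 neuron among them included. That neuron, sample 4, was also low in the pan-neuronal markers, so its low value cannot be read as a lack of Kcna4 in CD-1 Type-1 neurons. The difference was 3.71, from 3.73 ± 1.17 (SD, n = 3) against 0.03 ± 0.03 (SD, n = 5), and 2.78 with sample 4. Over neurons, 6378 fragments in samples 5 to 7 gave 14.1 FPKM (95% exact Poisson interval 13.7 to 14.4), and 11 fragments in the Unknown neurons gave 0.0155 FPKM (0.00775 to 0.0278). Kcna4 passed the filter through samples 5 to 7 alone. It lies on chromosome 2 between 107290639 and 107298502 on the plus strand, and no exon of another gene overlaps it.

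The other pore subunits overlapped between the classes. Kcnc4 was at 5.88, 18.7 and 10.3 FPKM in samples 5 to 7, at 6.99, 30.8 and 34.2 FPKM in samples 2, 3 and 10, and at most at 0.0826 FPKM in samples 8 and 9. Kcnd2, the main somatodendritic A-type subunit, reached 35.3 and 1.93 FPKM in samples 6 and 7, compared with 39.6, 31.1 and 12.8 FPKM in samples 2, 8 and 9, and stayed at or under 0.0436 FPKM in samples 3, 5 and 10. Kcnd1 and Kcnd3 did not exceed 1.72 FPKM in any neuron. Of 9 auxiliary subunits, 8 were considered, 0 were counted in either direction, and their median difference was -0.60. Kcnip2, a calcium sensor that binds Kcnd channels, was at 85.1 and 78.8 FPKM in samples 5 and 7 but at 0.0864 FPKM in sample 6, with 4 Unknown neurons between 6.45 and 40.2 FPKM. Kcnip1 was at 9.34 and 12.2 FPKM in samples 4 and 7 and between 11.3 and 35.8 FPKM in 4 Unknown neurons.

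The genes of the h-current, which produces the sag that Type-1 neurons lack, did not separate the classes either. Of 5 listed genes, 3 were considered and 0 were counted. Hcn2 was at 31.6, 5.65 and 0.146 FPKM in samples 5 to 7 and at 0.00863, 10.3, 17.5, 1.99 and 63.6 FPKM in the Unknown neurons. Hcn3 was at 12.1, 28.3 and 33.5 FPKM in samples 5 to 7, at 24.1 FPKM in sample 9 and at most at 3.11 FPKM in the other Unknown neurons (difference 3.22). Hcn4 did not exceed 0.135 FPKM in any neuron. The list median was -0.21 and turned to 0.17 with TPM (transcripts per kilobase, scaled to a fixed sum).

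Further channel genes were counted as higher in samples 5 to 7, and 0 as lower, where 3.61% and 1.51% of all considered genes were counted. Among 9 sodium channel genes (7 considered) it was Scn2a, the main sodium channel of immature neurons, at 16.9, 29.8 and 17.4 FPKM against at most 13.7 FPKM in Unknown neurons (difference 2.37). Among 15 calcium channel genes (7 considered) there were 2. Cacna1b, the presynaptic N-type pore subunit, was between 9.78 and 15.6 FPKM in samples 5 to 7 and at 5.75 and 7.07 FPKM in samples 8 and 9, with the other 3 Unknown neurons at most at 0.0527 FPKM. Cacna2d1, an auxiliary subunit, was at 1.27, 7.32 and 8.41 FPKM against at most 0.952 FPKM, and it passed the filter through samples 5 to 7 alone. Among 7 calcium- and sodium-activated potassium channel genes (5 considered), Kcnmb4, a regulatory subunit of BK channels, was at 2.64, 5.16 and 2.30 FPKM against at most 1.44 FPKM. Kcnmb4 exons overlap antisense genes. Cacna1b was no longer counted with TMM-scaled library sizes. In sample 4 these 4 genes did not exceed 0.378 FPKM. TRP channels (7 of 14 considered) and leak and inward rectifier channels (9 of 14 in the files considered) had 0 counted genes, with medians of 1.48 and 0.92. Outside these lists, and picked with its values in view, Kcnk4, a two-pore domain potassium channel, was counted as higher, at 23.4, 8.42 and 9.78 FPKM against at most 7.397 FPKM in Unknown neurons (difference 2.41), but not with TMM-scaled library sizes. Its exons overlap a gene on the same strand.

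Receptor genes showed 2 counted members, Glra3 of 4 considered glycine receptor genes and Grik4 of 6 considered kainate and delta receptor genes. Of all considered genes, 3.61% were counted as higher. Glra3, a glycine receptor alpha subunit, was at 1.88, 6.53 and 9.79 FPKM in samples 5, 6 and 7 and at 0 in 4 of 5 Unknown neurons, with 0.00984 FPKM in sample 9. These are 4843 fragments in samples 5 to 7 and 2 in the Unknown neurons, and the difference was 2.62. Like Kcna4 and Evx2, it was lowest in sample 5 among the 3, the P0 neuron, and it passed the filter through these 3 neurons alone. Grik4, a high-affinity kainate receptor subunit, was at 1.37, 14.0 and 2.65 FPKM against at most 0.813 FPKM (difference 2.16). It too passed the filter through samples 5 to 7 alone. Its exons overlap a gene on the same strand. Glycine receptor genes as a list (4 of 5 considered) had a median of 2.17, or 1.04 without samples 2 and 3. Glra3 entered this list median through samples 5 to 7 alone, so the median is no support for a difference. Gria2, the AMPA receptor subunit that limits calcium entry, was at 40.8, 73.0 and 110.5 FPKM in samples 5 to 7 and at 54.3, 14.2 and 13.6 FPKM in samples 8, 9 and 10. Gabra5, a subunit of extrasynaptic GABA-A receptors, was at 49.6, 27.8 and 126 FPKM and at 43.6 FPKM in sample 10. AMPA, NMDA, metabotropic glutamate and GABA-A receptor lists had 0 counted genes, and their medians were 0.42, 0.97, 0.44 and 1.01. Without samples 2 and 3 these medians were -0.051, 0.13, -0.016 and 0.59, and that of sodium channels went from 1.23 to 0.17. The median over all considered genes fell as well, from 0.43 to 0.13.

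Outside the lists, 2 further receptor genes are given, picked with their values in view. Htr2a, an excitatory serotonin receptor, was at 4.05, 9.08 and 18.2 FPKM in samples 5 to 7 and at most at 0.0808 FPKM in Unknown neurons (difference 3.26). It passed the filter through samples 5 to 7 alone. Gabbr2, a subunit of the metabotropic GABA-B receptor, was at 95.8, 39.4 and 26.9 FPKM in samples 5 to 7, against 11.0, 8.52, 11.7, 13.2 and 10.3 FPKM in the Unknown neurons and 8.30 FPKM in sample 4. Gabbr2 was thus measured well above its counting error in all 9 neurons, and its difference was 2.01, from 5.58 ± 0.92 (SD, n = 3) against 3.57 ± 0.22 (SD, n = 5).

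Peptide genes had 0 counted members. Of 23 precursors 5 were considered, with a median of 1.32. Penk, the enkephalin precursor, was at 492, 799 and 290.4 FPKM in samples 5 to 7 and at 469.7 FPKM in sample 8, compared with 32.8, 81.8, 1.94 and 55.2 FPKM in samples 2, 3, 9 and 10. Its high level thus went with that of Slc17a6 in the same 4 neurons. Pdyn, the dynorphin precursor, was at 245 FPKM in sample 10 and at most at 0.229 FPKM elsewhere. Sst, somatostatin, a marker of a preBötC subset, was at 10.8 and 41.8 FPKM in samples 5 and 6 and between 22.8 and 28.0 FPKM in samples 2, 3 and 8, and Tac1, the substance P precursor, reached 30.1 and 9.39 FPKM in samples 6 and 7 and at most 0.0775 FPKM in any other neuron. Among receptors, Tacr1, which binds substance P, was at 14.0, 33.0 and 64.0 FPKM in samples 7, 8 and 9, and Oprm1, the mu-opioid receptor, was at 6.19 and 2.36 FPKM in samples 6 and 7 and at most at 0.0102 FPKM elsewhere. Reln, a secreted glycoprotein of preBötC neurons, was at 1.10, 15.8 and 8.05 FPKM in samples 5 to 7 and at 4.80 and 3.66 FPKM in samples 8 and 9. Pdyn, Sst, Tac1, Tacr1, Oprm1 and Reln were chosen after their values were seen.

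All 23 genes of synaptic vesicle release were considered, with 2 counted as higher and 0 as lower in samples 5 to 7, against 3.61% and 1.51% of all considered genes. With TPM, 5 were counted as higher. The list median was 0.88, against -0.0029 with sample 4. Sv2b, a synaptic vesicle glycoprotein, was at 24.2, 23.7 and 16.8 FPKM in samples 5 to 7, at 5.89 FPKM in sample 8, and at most at 0.146 FPKM in the other Unknown neurons (difference 3.87). Syn2, a synapsin, was at 92.1, 121 and 101 FPKM against 4.05 to 66.4 FPKM (difference 2.16). In both genes exons overlap one on the opposite strand. The pan-neuronal markers, by contrast, had a median of 0.39, close to that of all considered genes, with 0 of 10 counted. Commissural axon guidance genes (8 of 18 considered) had a median of 1.35 and 0 counted genes. Without samples 2 and 3 their median was 0.57, and 1 member, Dcc, was counted as lower.

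**Figure D4:**
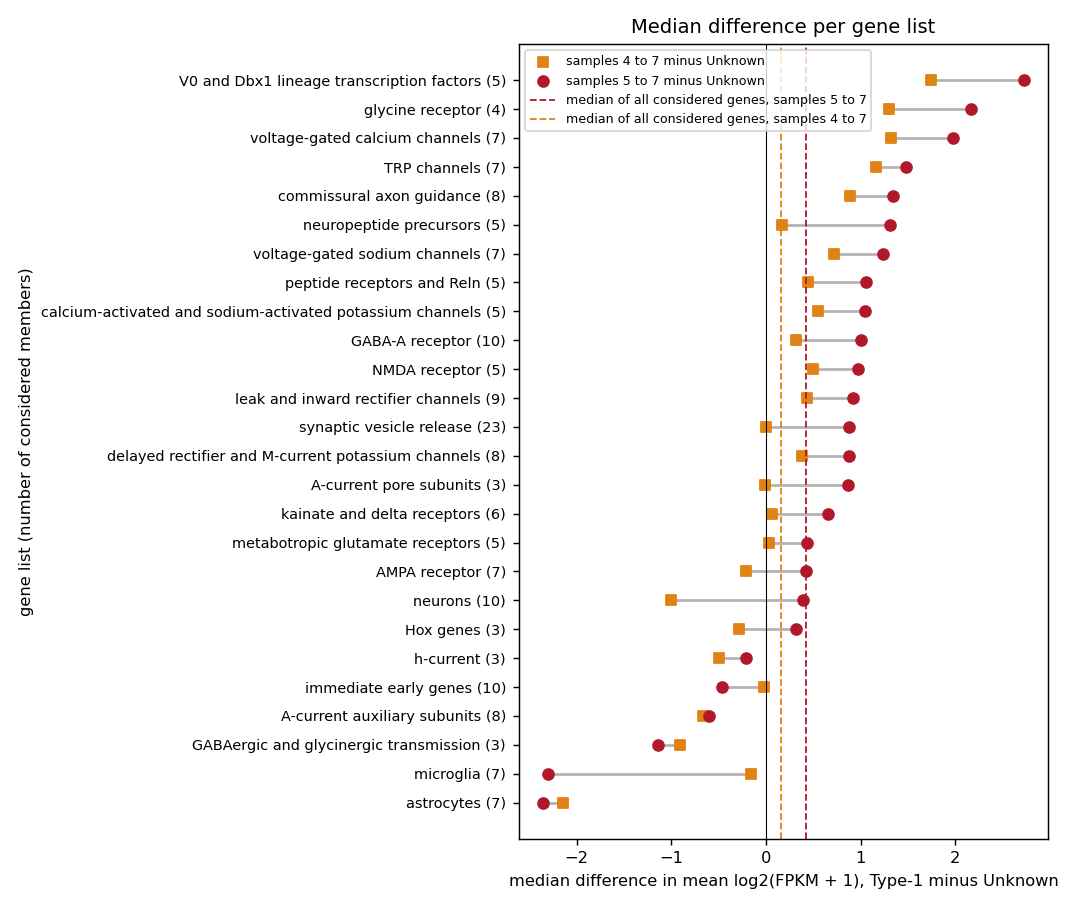
Median difference per gene list (horizontal axis, mean log2(FPKM + 1), Type-1 minus Unknown) for lists with at least 3 considered members (vertical axis, number in brackets), with all 4 Type-1 neurons as orange squares and without sample 4 as red circles. Dashed lines mark the medians over all considered genes, 0.16 and 0.43; the V0 lineage list is highest at 2.73 and the astrocyte list lowest at -2.36 without sample 4.

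Of the 153 lower genes, 12 stayed under 1 FPKM in every Type-1 neuron and passed the filter through Unknown neurons alone. The leading genes among the 153 lower ones include the following 6. Gatm, the first enzyme of creatine synthesis, was at 7.90, 0.106 and 0.169 FPKM in samples 5 to 7 and at 227, 83.6, 70.1, 99.7 and 40.3 FPKM in samples 2, 3, 8, 9 and 10, a difference of -5.31. Car2, carbonic anhydrase, was at most at 0.209 FPKM in samples 5 to 7 and between 5.99 and 201 FPKM in Unknown neurons (difference -5.17). Rac2, a GTPase of blood-derived cells, was at 0.0968, 0.0819 and 0.0502 FPKM against 11.9 to 135 FPKM, and Lmo2, a haematopoietic transcription cofactor, at 0.113, 0.132 and 0.036 FPKM against 6.23 to 76.5 FPKM. The chemokine genes Ccl3 and Ccl4, made by microglia, were at most at 15.8 and 8.08 FPKM in samples 5 to 7, at least at 34.8 and 28.0 FPKM in Unknown neurons, and at 11305 and 18372 FPKM in sample 4. Sample 4 was above all samples 5 to 7 for each of these 6 genes.

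The marker lists of astrocytes and microglia had medians below 0, although 0 of their members were counted in either direction. Of 10 astrocyte markers 7 were considered, all 7 had differences below 0, and the median was -2.36, or -1.37 without samples 2 and 3. Their summed level ran from 151 to 449 FPKM in samples 5 to 7, was 5120.1 FPKM in sample 4 and ran from 395 to 6643 FPKM in Unknown neurons. Apoe, a lipoprotein of astrocytes and microglia, made up most of this sum in samples 2, 3, 4, 7, 8 and 10, and Aldoc, a glycolytic enzyme of astrocytes, in samples 5, 6 and 9, at 335, 147 and 763 FPKM. Apoe was at 62.0, 3.88 and 231 FPKM in samples 5 to 7, at 4991 FPKM in sample 4, compared with 2578, 5045, 1562, 15.5 and 243 FPKM in samples 2, 3, 8, 9 and 10. Of 8 microglial markers 7 were considered, all 7 had differences below 0, and the median was -2.30, or -1.17 without samples 2 and 3. Their summed level ran from 1.08 to 117 FPKM in samples 5 to 7, was 15054 FPKM in sample 4 and ran from 0.667 to 1931 FPKM in Unknown neurons. No member of either list was at 0 in all 9 neurons. The list mean of sample 9 fell inside that of samples 5 to 7 for astrocytes (1.37) and below it for microglia (0.11). The part of glial RNA in the lower genes was not tested. Of 8 oligodendrocyte genes 2 were considered (median -1.22, or 0.72 without samples 2 and 3), and all 9 endothelial and mural markers stayed at or under 0.0604 FPKM in sum in every neuron.

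The lower genes were also short, and many were pseudogenes. Of the 153 genes, 146 had a type in GENCODE M21, of which 49 (33.6%) were pseudogenes, against 7.43% of all considered genes and 3.03% of the 366 higher genes. Among them were 19 of the 91 considered pseudogenes of ribosomal protein genes, such as Rpsa-ps10, at 6.42, 4.63 and 2.68 FPKM in samples 5 to 7 and between 12.5 and 531 FPKM in Unknown neurons. Fragments of a parent gene may be counted at such copies, so a pseudogene and its parent are uncertain. The parents went the same way: of 79 considered ribosomal protein genes, 75 had a difference below 0, 7 were counted as lower and 0 as higher, and their median was -0.78. With TPM 3 were counted as lower, with a median of -0.37, and without samples 2 and 3 it was 2, with a median of -0.30. They held 0.954%, 0.963% and 1.04% of fragments in samples 5 to 7, 7.41% in sample 4, and 2.62%, 3.81%, 1.79%, 1.11% and 0.879% in samples 2, 3, 8, 9 and 10, so that sample 10 was below samples 5 to 7. Ribosomal protein genes were looked at after the pseudogenes were seen.

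Mitochondrially encoded genes held 0.253%, 0.219% and 1.25% of fragments in samples 5 to 7, 9.85% in sample 4 and between 0.347% and 7.83% in Unknown neurons, where sample 10 was lowest. The median gene length was 1484 bases for the lower genes, 5212 bases for the higher genes and 4128 bases for all considered genes. From the shortest to the longest of 4 equal length classes of the considered genes, the share counted as higher went from 2.72% to 4.78%, the share counted as lower from 3.47% to 0.553%, and the median difference from -0.14 to 0.67. The difference between samples 5 to 7 and the Unknown neurons thus moved with gene length over all considered genes, and the part of this in single genes was not tested.

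Immediate early genes, which rise with neuronal activity and with tissue handling, had 0 of 10 considered members counted in either direction, and a median of -0.47. Fos was at 146, 94.6 and 16.8 FPKM in samples 5 to 7 and between 28.0 and 302 FPKM in Unknown neurons. Among the P0 neurons alone, sample 5 differed from samples 3 and 8 by 2.37 for Kcna4, 1.41 for Evx2, 1.53 for Glra3, 6.67 for Asb4 and -4.76 for S100a10. Among P2 and P3 neurons alone, samples 6 and 7 differed from samples 2 and 9 by 4.36, 3.82, 3.16, 8.76 and -6.61 for these 5 genes. The sign of each is fixed by the counting rule, so only the sizes carry information. No Unknown neuron was recorded at P3, and the split by age was chosen after seeing the data.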

How the data were processed

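Whole-cell recordings classed each inspiratory neuron, and its cytoplasm was drawn into the patch pipette, converted to cDNA with the SMART-Seq v4 kit and sequenced as 1 library per neuron. The authors trimmed the reads, aligned them with STAR (2.7.7a in the submitters' processing notes) to GRCm38 and ran featureCounts. They deposited, per gene, raw counts of fragments that are not normalized, the gene length and FPKM. The deposited FPKM equal count per kilobase and per 1000000 counted fragments. How the counting treated multiply mapped or shared fragments is not given in the sources used here, and the kit neither marks strand nor molecules.

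Deposited FPKM were taken to log2 with a pseudocount of 1. A gene was considered if 3 or more of the 9 neurons reached 1 FPKM, and a gene was counted when the classes did not overlap and their means differed by 1 or more. In simulated counts, the calculation found most of the genes given a large change. The simulation gave all neurons the same level of each other gene, so it did not include the differences in detected genes between these libraries. The labels give no animal, so no test was made; the study's methods state none for this comparison. Neurons were grouped by their labels, and members and gene lists were chosen with earlier results of these data known. Named were the 10 genes (with sample 4) and the 12 genes (without it) with the largest difference in each direction, leaving out clone names, Gm and Rik symbols and mitochondrial genes, and of each list up to 4 counted members or else the 2 with the highest mean, with all A-current, h-current and transmitter genes. Zfhx3, Kcnk4, Lhx1, Pax2, Lhx3, Foxd3, Slc18a3, Isl1, Pdyn, Sst, Tac1, Tacr1, Oprm1, Reln, Htr2a and Gabbr2 were chosen after their values were seen. A few genes that this rule selects are not reported here. Positions are from GENCODE M21. Exon overlaps are not stated above for every gene. Exons of Adgrl2, Fam184b, Gabra5, Gata3, Gria2, Hcn3, Hoxa4, Kcnd3, Penk and Slc32a1, among others, also overlap another gene. Alternatives were another pseudocount, TPM, TMM factors from edgeR (4.0.16, R 4.3.3), other filters and minimum differences, medians, thinning to the smallest total, subtraction of 0.1% of the largest count, and leaving out neurons. Calculations ran in Python 3.11.15 with pandas 2.3.3, NumPy 2.4.6, SciPy 1.17.1 and, for plots, Matplotlib 3.10.9.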

Additional observations from a re-analysis of the deposited data

Results flagged for a closer look

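Dixon's criterion at the 95% level was applied to each gene list, to library measures and to the leading genes within the Type-1 and within the Unknown neurons. It marked 37 of 146 sets of values, and the sets share the same 9 neurons. The leading genes were picked from these same values for large differences between the classes. Part of them were picked with a Type-1 neuron left out, which favours a mark on that neuron. A chance rate of 5% thus does not apply to these sets, and the number of marked sets cannot be compared with it. All values below are log2(FPKM + 1), or its mean over a list, unless a unit is given.

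Sample 4 was marked among the Type-1 neurons as lowest for the lists of synaptic vesicle release (0.7496), pan-neuronal markers (1.864), AMPA receptors (0.3157), GABA-A receptors (0.1527), glutamatergic transmission (0.07026), the h-current (0.1547) and motoneurons (0.3395). It was highest for sensory ganglion neurons (0.442) and for the mitochondrial share of fragments, at 9.852%. Among single genes it was lowest for Fbxo21 (0.06903), Nrn1 (0.04294), Spns1 (0), Tmem163 (0.06694), Tmem255a (0.04302) and Xrcc3 (0.03521). It was highest for Adgrl2 (1.069), Car2 (5.428), Ldhb-ps (3.708), Lmo2 (6.009), Rac2 (6.64) and Rpsa-ps10 (9.097). Fam184b was highest in sample 7, at 0.6388.

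Among the Unknown neurons, sample 9 was marked as highest for the lists of motoneurons and cholinergic neurons (6.366), sensory ganglion neurons (1.612) and erythroid cells (1.36), and for Pomgnt2 (3.482), Lypd6 (0.1497) and Gspt2 (0.1477). Lypd6 and Gspt2 had only 9 fragments each in sample 9. Sample 8 was highest for the glutamatergic list (2.618) and for Nrn1 (5.453), Fbxl6 (3.824), Mfng (3.771) and Spns1 (2.187). Sample 10 was highest for Zfp513 (3.09), Ppie (2.836) and Hars2 (0.9171), and sample 3 for Xrcc3 (2.229). Without sample 8, 184 genes were counted as higher with sample 4 and 655 without it. The reasons for these values were not tested.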

How the results depend on the processing

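The counts of genes depended on which neurons were included, and a smaller set overlaps less often by construction. Leaving out each neuron gave 93 to 357 higher and 75 to 150 lower genes with all Type-1 neurons, against 72 and 53, and 432 to 671 higher and 198 to 291 lower genes without sample 4, against 366 and 153. Leaving out sample 4 gave the 357 and 150, where the filter also ran over 8 neurons. Without samples 2 and 3 there were 130 higher and 199 lower genes with sample 4, so the larger number changed direction, and 327 lower genes without it. With TPM, 607 genes were higher and 93 lower in samples 5 to 7. The share of higher among counted genes was 70.5% with FPKM, 86.7% with TPM and 63.0% with TMM-scaled sizes, and the median over all considered genes was 0.43, 0.83 and 0.21. A filter of 5 FPKM left 34 higher and 49 lower genes with sample 4, and leaving out sample 2 gave 93 and 99, so the larger number changed direction in both. A minimum difference of 2 left 32 lower genes with sample 4 and 74 without it. The remaining alternatives kept these 4 counts within 1.5 times, with 77 and 54 genes, and 404 and 156 without sample 4, at a mean of at least 1 FPKM, a filter chosen after seeing the data.

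For 137 genes with a value, 2191 of 2343 differences under an alternative moved by no more than the SD between neurons and 152 by more. Of the counted genes, 0 changed sign. With neurons left out or split by age, another pseudocount or medians, the counting rule fixed that sign in advance, so the 0 is no support there. Of the moved values 55 came from a pseudocount of 0.1 and 46 from P0 neurons alone. With TMM-scaled sizes, Pomgnt2 and Cacna1b were not counted without sample 4, and Ldhb-ps, Rap2a, S100b and Serpine2 not with it. With TPM, Mfng, Zfp513 and Trib2 were not counted with sample 4. No paired analysis was possible because the labels give the classes no shared replicate numbers. FPKM carry no correction for differences in cDNA yield, and levels under 3 fragments cannot be told from 0.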
